A study of Homo sapiens with 11 samples.

Results

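DNA replication licensing loads the MCM2-7 helicase onto chromatin before S phase. The 10 genes described here are the 6 helicase subunits MCM2, MCM3, MCM4, MCM5, MCM6 and MCM7, the origin recognition subunit ORC1, the loading factors CDC6 and CDT1, and PCNA, the sliding clamp of the replication fork. They were listed by gene name and function, with earlier results of these data known, and are 10 of the 23167 gene identifiers in each count table. In the licensing reaction the origin recognition complex marks origins, CDC6 joins it, and CDT1 brings the MCM hexamer, which is loaded as an inactive double ring. Kinases then convert the loaded rings into active helicases, and geminin (GMNN) and the CUL4-DDB1 ubiquitin ligase with DTL limit CDT1 so that an origin is licensed once in each cycle. Transcription of these genes is known to rise towards S phase under E2F factors, so their RNA level is often read as a mark of cycling cells.

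RNA-seq was carried out in MDA-MB231, an established human triple-negative breast cancer line with mesenchymal features, in 2 WT and 2 mH2A1.1 KD libraries. mH2A1.1 is one of the splice isoforms of macroH2A1, a histone variant with a large non-histone domain. KD cells received 11 nM siRNA against mH2A1.1 for 3 days, and WT cells received the transfection reagent with no siRNA, so there was no non-targeting siRNA and an effect of siRNA as such cannot be told apart from loss of the isoform. ChIP-seq was carried out in untreated cells of the same line with a custom antibody to mH2A1.1 and a commercial antibody to total mH2A1, 1 library each. No source used here says that replicates were separate cultures, so the p-values measure the spread between these libraries, which may be technical.

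The count tables held 9794674 and 7856892 reads for WT and 5584962 and 2309549 for mH2A1.1 KD. KD replicate 2 held 30 reads on chromosome 21 and 0 on chromosomes 22 and X, where the other libraries held between 44311 and 379581 on each, so those chromosomes were left out of the 4-library test and MCM5, on chromosome 22, was tested in the 3 other libraries. MACROH2A1, the targeted gene, stood at 385 and 394 TMM-normalized CPM (counts scaled to library size) in WT and at 274 and 300 in KD, with a log2 fold change of -0.44 ± 0.173 (SE of the fit, adjusted p = 0.205, edgeR). Gene counts sum its isoforms, so this value does not measure mH2A1.1 alone. The line's markers VIM (2310 to 4730 CPM), CD44 (1320 to 1410) and AXL (1720 to 2280) were high in every library. SPARC, another of them, was at 0.378 to 2.84. Of the 6 luminal markers, ESR1 and PGR had no reads and CDH1 was at 0.378 to 2.5 CPM. KRT8 was at 496 to 1360 CPM, GATA3 at 17.8 to 24.6 and EPCAM at 19.9 to 24.2, so luminal markers were not all absent.

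The promoters of 8 of the 10 genes were found in RefSeq (build GRCh38.p14), as windows of 300 bases from 250 before to 50 after a transcript start. There were 11 such windows, since MCM7 had 3 and PCNA 2, and no entry was found for MCM4 and MCM5. Both strands were searched for 4 E2F strings (TTTCCCGC, TTTGGCGC, TTTCGCGC and TTTGCCGC), for the CCAAT box that NF-Y binds, and for the cell cycle homology region (TTTGAA or TTCGAA). The E2F strings were present in 7 of the 11 windows, which belonged to 7 of the 8 genes, against 3.31% of all 35116 promoters in the table. By gene, 3.99% of all gene symbols had a match. CCAAT was found at 6 of the 8 genes (39.7% of all gene symbols) and the cell cycle homology letters at MCM6 alone (19.5%). These matches are letters in a window and not measured binding sites.

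These 4 promoters are shown because they differ in the ChIP-seq data described further on. The starts of MCM2 and MCM7 lay under an mH2A1.1 peak and those of MCM6 and CDC6 did not. Capitals mark the E2F, CCAAT and cell cycle homology letters on either strand, so that ATTGG is CCAAT read on the other strand.
MCM2, chr3:127598161-127598460, plus strand: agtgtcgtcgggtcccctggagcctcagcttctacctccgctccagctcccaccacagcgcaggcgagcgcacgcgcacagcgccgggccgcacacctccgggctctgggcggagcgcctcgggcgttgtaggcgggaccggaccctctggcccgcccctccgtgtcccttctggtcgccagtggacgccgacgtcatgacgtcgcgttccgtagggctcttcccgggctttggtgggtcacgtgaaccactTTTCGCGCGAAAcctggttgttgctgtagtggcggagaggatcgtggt
MCM7, chr7:100101348-100101647, minus strand: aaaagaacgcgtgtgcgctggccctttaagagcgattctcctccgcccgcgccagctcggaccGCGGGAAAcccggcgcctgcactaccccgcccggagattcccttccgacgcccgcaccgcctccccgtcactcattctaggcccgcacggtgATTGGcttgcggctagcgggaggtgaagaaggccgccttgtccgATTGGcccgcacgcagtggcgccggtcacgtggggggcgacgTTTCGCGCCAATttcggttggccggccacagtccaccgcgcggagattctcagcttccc
MCM6, chr2:135876394-135876693, minus strand: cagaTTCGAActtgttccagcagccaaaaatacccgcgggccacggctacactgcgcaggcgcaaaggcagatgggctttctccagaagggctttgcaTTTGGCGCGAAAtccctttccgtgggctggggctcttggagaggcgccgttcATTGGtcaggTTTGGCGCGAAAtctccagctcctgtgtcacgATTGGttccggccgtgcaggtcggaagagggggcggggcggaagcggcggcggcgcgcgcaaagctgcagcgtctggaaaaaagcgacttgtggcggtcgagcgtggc
CDC6, chr17:40287629-40287928, plus strand: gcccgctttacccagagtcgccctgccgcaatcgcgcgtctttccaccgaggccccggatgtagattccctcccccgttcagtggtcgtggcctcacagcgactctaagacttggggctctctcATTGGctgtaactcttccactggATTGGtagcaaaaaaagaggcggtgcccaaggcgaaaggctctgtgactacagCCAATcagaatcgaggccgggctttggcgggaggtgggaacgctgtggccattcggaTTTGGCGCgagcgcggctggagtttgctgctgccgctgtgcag
MCM2 carried 1 E2F stretch, formed by a pair of overlapping matches on opposite strands that began 2 bases after the start. MCM6 carried 2 such stretches, each formed by overlapping matches, that began 152 and 90 bases before the start. In MCM7 one E2F match began 9 bases before the start and ran into a CCAAT box, and another began 187 bases before it. CDC6 had its E2F match 7 bases after the start and 3 CCAAT boxes at 126, 103 and 50 bases before it. ORC1 held 1 CCAAT box and none of the E2F strings.

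No licensing gene was called different between mH2A1.1 KD and WT. The threshold was the one used in the study, an adjusted p below 0.1 and a fold change above 1.5, which is 0.58 on the log2 scale. The edgeR quasi-likelihood test called 0.0% of the 10963 genes tested (0 genes, of which 2540 had an unadjusted p under 0.05), so a count of 0 among the licensing genes says nothing particular about them. DESeq2 on the same libraries called 11.3% of 7765 genes and again none of the licensing genes. The 10 fold changes ran from -0.55 for MCM6 to 0.33 for MCM2, with a median of -0.02 against 0.01 over all genes tested. The SE of each of the 9 values from 4 libraries lay between 0.171 and 0.285, and a p that misses the threshold does not show that levels were equal. In bulk RNA, fewer cells in the phases that express these genes and less RNA in each cell cannot be told apart.

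**Figure D1:**
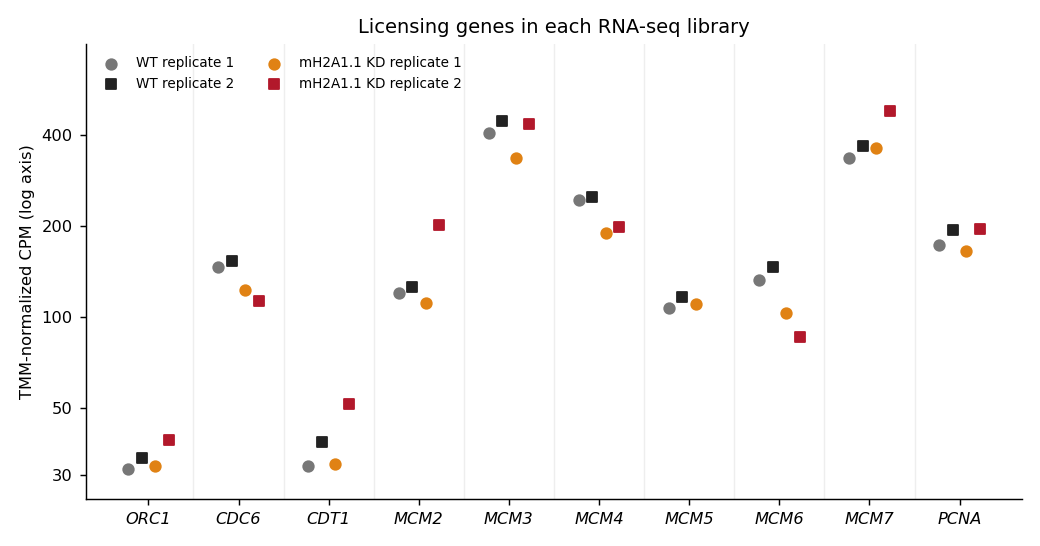
TMM-normalized CPM (log axis) of the 10 licensing genes in each of the 4 RNA-seq libraries, with circles for replicate 1 and squares for replicate 2. MCM4, MCM6 and CDC6 lie lower in both KD libraries than in both WT libraries, KD replicate 2 is the highest library for MCM2, MCM7, CDT1, ORC1 and, narrowly, PCNA, and MCM5 has no value in KD replicate 2.

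ORC1, the origin recognition subunit whose level varies with the cell cycle, was at 31.5 and 34.2 CPM in WT and at 32.1 and 39.2 in KD. The groups overlapped, since KD replicate 1 lay between the WT libraries. The log2 fold change was 0.10 ± 0.206 (adjusted p = 0.76, edgeR). CDC6, the ATPase that joins the origin complex to start loading, was at 146 and 153 CPM in WT and at 123 and 113 in KD. Each KD value was under each WT value, and the log2 fold change of -0.34 ± 0.173 did not pass the test (adjusted p = 0.266, edgeR). CDT1, which escorts the hexamer to the origin, was at 32.2 and 38.7 CPM in WT and at 32.7 and 51.5 in KD. Only KD replicate 2 stood above WT, and the log2 fold change was 0.22 ± 0.264 (adjusted p = 0.609, edgeR).

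The log2 fold changes of the 6 helicase subunits differed in sign on this scale, and differences between subunits were not tested. MCM2 was at 120 and 126 CPM in WT and at 111 and 201 in KD, so that the KD libraries lay on opposite sides of WT (log2 fold change 0.33 ± 0.285, adjusted p = 0.475, edgeR). MCM6, its neighbour in the ring, was at 133 and 146 CPM in WT and at 103 and 86.0 in KD. Both KD libraries were below WT, and its log2 fold change of -0.55 ± 0.187 had the smallest p of the 10 genes without passing (adjusted p = 0.194, edgeR). MCM4, a subunit of the catalytic core with MCM6 and MCM7, was at 243 and 249 CPM in WT and at 189 and 198 in KD, again with no overlap (-0.35 ± 0.171, adjusted p = 0.25, edgeR).

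MCM3, the most abundant subunit in CPM in the WT libraries, was at 407 and 445 CPM in WT and at 336 and 434 in KD, where only KD replicate 1 was below WT (-0.15 ± 0.199, adjusted p = 0.645, edgeR). MCM7 was at 335 and 367 CPM in WT and at 363 and 480 in KD, where only KD replicate 2 was above WT (0.26 ± 0.203, adjusted p = 0.428, edgeR). MCM5, which pairs with MCM2 at the gate through which DNA enters the ring, was at 107 and 116 CPM in WT and at 110 in KD replicate 1, between the WT values. Its log2 fold change from 3 libraries was -0.01 ± 0.117 (adjusted p = 0.971, edgeR, with the lone KD library assumed to vary like WT). PCNA was at 173 and 194 CPM in WT and at 165 and 196 in KD, on both sides of WT (-0.03 ± 0.187, adjusted p = 0.938, edgeR).

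Of the 9 genes with 4 values, 3 had each KD value lower than each WT value (MCM4, MCM6 and CDC6), against 32.4% of all genes tested. Both KD libraries were above WT for 0 of the 9, against 32.5%, and the KD libraries fell on opposite sides of WT for 2 (MCM2 and PCNA), against 15.3%. The other 4 overlapped with WT.

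The 2 KD libraries differed from each other along the GC content of the genes. KD replicate 1 alone was below the WT mean for 9 of the 10 genes (all but MCM7), narrowly so for MCM5 (-0.01) and ORC1 (-0.03). KD replicate 2 was below it for 3 of 9 (MCM4, MCM6 and CDC6). The shares of all genes below the WT mean were not counted. With KD replicate 1 as the only KD library, the median log2 fold change was -0.15 for the licensing genes and -0.002 over all genes tested. Over all genes tested, the median log2 ratio of KD replicate 2 to the WT mean ran from -0.79 among the 2190 genes with the lowest exon GC content (31.0% to 40.4%) to 0.73 among the 2189 with the highest (57.0% to 73.8%), and that of KD replicate 1 from -0.25 to 0.18. Among the licensing genes, MCM6 and CDC6, with 42.4% and 43.5% GC, had negative fold changes, and MCM2, MCM7 and CDT1, with 56.0%, 56.2% and 64.3%, had positive ones. The order was not strict, since MCM4 (46.8%, -0.35) lay below PCNA (45.3%, -0.03), MCM3 (50.6%) stood at -0.15 where the median of all genes was 0.29, and CDT1 lay below MCM2 and MCM7. Across the 9 genes the fold change and exon GC content gave Pearson's r = 0.83, and across 10943 tested genes r = 0.63, both as descriptions of genes that share the same 4 libraries.

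Smooth trends of each library on exon length and GC content were then passed to edgeR as offsets in place of the TMM factors. All 9 fold changes then lay between -0.35 and -0.03, with a median of -0.14 against 0.00 over all genes tested. In that fit 49.9% of all genes were below 0, and Pearson's r with GC content was -0.03 over the 9 genes. The signs of MCM2 (-0.07 ± 0.144), MCM7 (-0.11 ± 0.101), CDT1 (-0.31 ± 0.122) and ORC1 (-0.09 ± 0.125) turned, while MCM4 kept its value at -0.35 ± 0.102. The fit called 5.54% of genes and none of the 9. MCM4 passed the adjusted p alone (0.0873, edgeR) without reaching 1.5-fold, and MCM3 (-0.33 ± 0.115, adjusted p = 0.123, edgeR) and MCM6 (-0.30 ± 0.104, adjusted p = 0.126, edgeR) did not pass it.

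**Figure D2:**
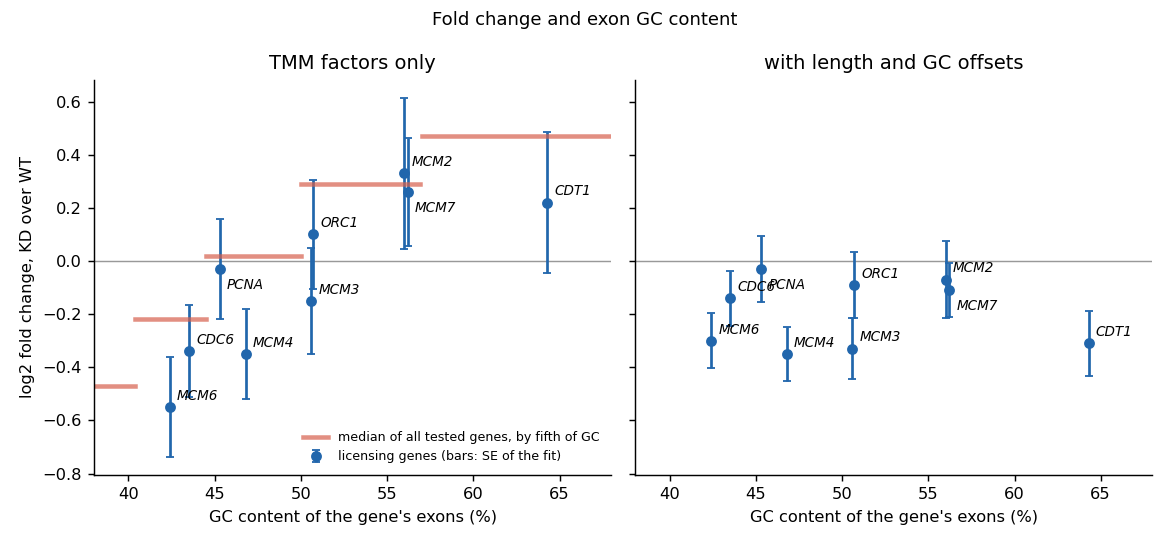
Log2 fold change (KD over WT) of the 9 licensing genes with 4 libraries against the GC content of their exons, with bars for the SE of the fit. On the left, with TMM factors only, the genes tend to rise with GC content. All but MCM2 lie there below the median of all tested genes of like GC content. These medians are red lines for 5 bins of GC content, drawn only within the axis. On the right, with length and GC offsets in place of the TMM factors, all 9 lie between -0.35 and -0.03.

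Leaving out one KD library also changed which licensing genes passed. Without KD replicate 1, MCM2 (0.70) and MCM6 (-0.70) passed the threshold, 2 of 9 licensing genes against 41.8% of all 11351 genes tested. The KD side of that fit is KD replicate 2 alone and its spread is that between the WT libraries, so these calls describe 1 library and are not read as a change in KD. With KD replicate 1 as the only KD library, all chromosomes kept and the spread again taken from WT, 7.96% of 12135 genes were called and none of the 10 licensing genes. In that fit MCM3 (-0.34), MCM4 (-0.38) and MCM6 (-0.43) had adjusted p of 0.00506, 0.00326 and 0.00274 in edgeR but stayed under 1.5-fold. MCM4, MCM6 and CDC6 were below 0 with either KD library left out. This follows from each of their KD values lying below each WT value and is no further evidence. MCM2 turned from 0.70 without KD replicate 1 to -0.14 without KD replicate 2.

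Levels can be compared between subunits only per length. On the union of each gene's exons, the WT libraries gave MCM3 as the highest subunit, at 112 and 122 CPM per kb, then MCM7 at 67.6 and 74.0, MCM6 at 32.2 and 35.2, MCM2 at 25.5 and 26.6, MCM4 at 24.6 and 25.3, and MCM5 as the lowest at 14.7 and 15.9. MCM2 and MCM4, with SDs of 0.77 and 0.459 (n = 2 each), differed by little more than the spread between the WT libraries, and the other neighbours in this order by more. The highest subunit exceeded the lowest by 7.62 and 7.67 times in WT, although the protein ring holds each subunit once. On the length of the canonical transcript, an alternative added after seeing the data, MCM7 (136 and 149 CPM per kb) and MCM3 (133 and 145) overlapped at the top and the ratio was 4.42 and 4.46, so the order depends on which transcripts are expressed, which gene counts do not show.

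The ratio of MCM2 to MCM6 on the exon scale was 0.792 and 0.756 in WT, 0.94 in KD replicate 1 and 2.05 in KD replicate 2. It was higher in both KD libraries. The pair holds the highest and lowest of the 10 fold changes (0.33 and -0.55), so the higher ratio is not a separate result. The exon GC content of MCM2 and MCM6 is 56.0% and 42.4%, and with length and GC offsets their fold changes were -0.07 and -0.30. PCNA, at 123 and 138 CPM per kb of exons in WT, had a mean at percentile 99.2 of 18108 protein-coding genes. ORC1 (10.5 ± 0.62 CPM per kb of exons, SD, n = 2) and CDT1 (12.8 ± 1.66) were the lowest of the 10, at percentiles 76.4 and 80.1, below every MCM subunit in each library on both length scales. CDC6, at 27.5 and 28.9, was above MCM2 and MCM4 in WT on this scale and below both on the canonical length.

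**Figure D3:**
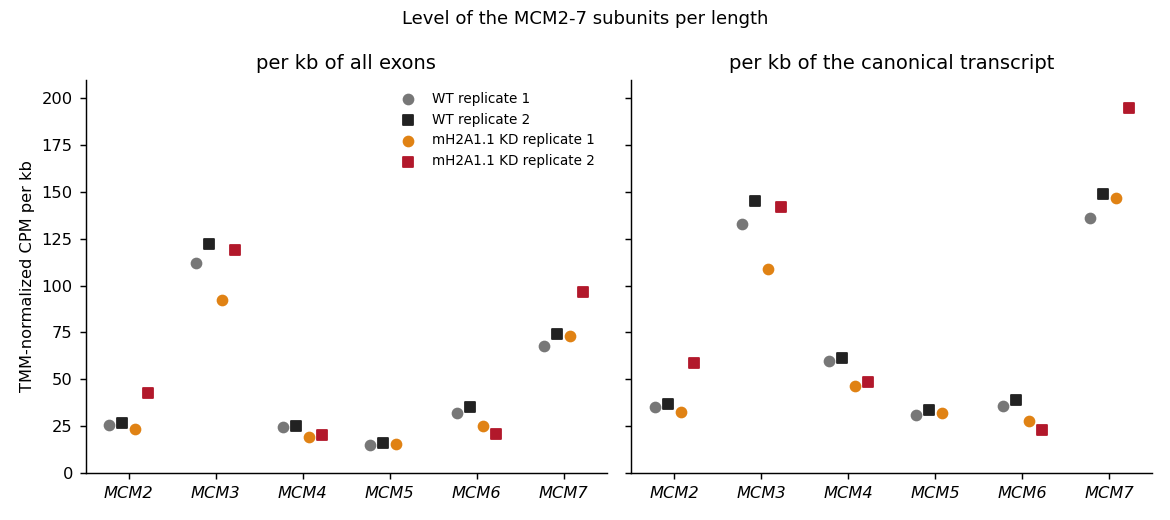
TMM-normalized CPM per kb for the 6 MCM2-7 subunits in each library, on the union of exons (left) and on the canonical transcript (right). MCM3 and MCM7 are the 2 highest subunits on both scales, and KD replicate 2 is the highest library for MCM2 and the lowest for MCM6.

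For 5 of the licensing genes another gene started within 1000 bp, and none of these neighbours passed the edgeR test. MCM4 and PRKDC, the catalytic subunit of the DNA-dependent protein kinase, start 7 bp apart, and PRKDC was at 1030 ± 9.36 CPM in WT and 775 ± 165 in KD (SD, n = 2 each), with a log2 fold change of -0.41 (adjusted p = 0.261, edgeR) beside -0.35 for MCM4. MCM2 and TPRA1 start 143 bp apart, and TPRA1 stood at 0.99 (adjusted p = 0.194, edgeR) beside 0.33. ORC1 and PRPF38A, a splicing factor gene, start 179 bp apart, with -0.49 for PRPF38A (adjusted p = 0.236, edgeR) beside 0.10 for ORC1. PCNA and CDS2 start 253 bp apart, with 0.37 for CDS2 (adjusted p = 0.233, edgeR) beside -0.03. AP4M1 starts 391 bp from MCM7 and overlaps it, with 0.41 (adjusted p = 0.303, edgeR) beside 0.26, and reads in the overlap may have been dropped or assigned to either gene, since the sources used here do not say whether the counting's strand setting matched the stranded kit. With length and GC offsets, PRKDC stood at -0.30 beside -0.35 for MCM4, and TPRA1 at 0.55 beside -0.07 for MCM2. PRPF38A then stood at -0.11 beside -0.09 for ORC1, CDS2 at 0.33 beside -0.03 for PCNA, and AP4M1 at 0.04 beside -0.11 for MCM7. MIR25, MIR93 and MIR106B lie inside MCM7 and had 0 to 6 reads in each library, too few to read.

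The genes whose centred log2 CPM over the 4 libraries lay nearest to the median profile of the 9 licensing genes were UBTF, DCLRE1B, CCDC127, LIAS and TBC1D2B, at Euclidean distances of 0.0228 to 0.0387. That profile was -0.07 and 0.09 in WT and -0.15 and 0.11 in KD, so replicates of a group differed by more than the groups did.

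Other replication and cell cycle genes were followed in 8 lists, which together hold 82 genes in the 4-library fit. They include 12 cyclins, kinases and inhibitors of the G1/S step and 10 mitotic proliferation markers, which are not replication machinery. The edgeR test called 0 of the 82, with 31 at an unadjusted p under 0.05. By DESeq2, 16 of the 77 genes tested fell, or 20.8%, against 5.73% of all genes, and 1 rose (CCND3). The 16 were GMNN, MCM8, GINS1, CDC7, DBF4, MTBP, CLSPN, POLE2, ATAD5, DNA2, RNASEH2B, CCNE2, CCNA2, TOP2A, CDK1 and CENPF. Their exon GC content lay between 34.9% and 44.1%, where the medians of all tested genes were -0.47 and -0.22, and of the licensing genes only MCM6 and CDC6 lie in it. With length and GC offsets in edgeR, 9 of the 82 fell, or 11.0%, against 3.33% of all genes: CDC7, TICRR, RFC5, PCLAF, RNASEH2B, RPA2, CCNA2, CDKN1A and MKI67. Of these CDKN1A did not separate the groups in CPM (81.1 and 85.2 in WT, 54.2 and 96.4 in KD) and stood at -0.17 without offsets. Only CDC7, RNASEH2B and CCNA2 were among both counts, and whether these shares differ from that of the licensing genes was not tested.

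Among the partners of licensing, 5 of 5 other origin recognition subunits had lower values in both KD libraries, a pattern of 32.4% of all genes tested, and none passed the edgeR test. The log2 fold changes were -0.40 for ORC2, -0.35 for ORC3, -0.77 for ORC4, -0.45 for ORC5 and -0.39 for ORC6 (adjusted p from 0.194 to 0.333, edgeR). With offsets they lay at -0.07, 0.06, -0.25, 0.04 and -0.20. GMNN, which binds CDT1 and blocks relicensing, was at 70.4 and 67.3 CPM in WT and at 42.9 and 35.4 in KD (-0.80 ± 0.194, adjusted p = 0.194 by edgeR and 0.0596 by DESeq2). With offsets GMNN stood at -0.51 (adjusted p = 0.0502, edgeR), under 1.5-fold. DDB1, the adaptor of the ligase that degrades CDT1, was above WT in both KD libraries, at 361 and 386 CPM in WT and 456 and 600 in KD (0.50 ± 0.201, adjusted p = 0.209, edgeR). Of its partners, DTL was below WT in both KD libraries (-0.57 ± 0.21, adjusted p = 0.198, edgeR) and CUL4A stood at 0.03 (adjusted p = 0.946, edgeR).

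The genes that fire licensed origins lay mostly below WT, and whether they differ from the licensing genes was not tested. In the origin firing and CMG helicase list, 12 of 15 genes had each KD value lower than each WT value (32.4% of all genes tested), and the median log2 fold change was -0.52, or -0.36 with offsets, where 14 of 15 were below 0 (49.9% of all genes). The median exon GC content of this list was 44.1%, at which the median of all tested genes was -0.22 without offsets. CDC7, the kinase that phosphorylates the loaded hexamer, was at 53.1 and 50.0 CPM in WT and at 32.3 and 21.7 in KD (-0.89 ± 0.236, adjusted p = 0.194 by edgeR and 0.0591 by DESeq2). With offsets CDC7 was called by edgeR (-0.59, adjusted p = 0.0469) and not by DESeq2 with the same trends (-0.60, adjusted p = 0.105). Its activating subunit DBF4 was at 93.2 and 86.0 CPM in WT and at 56.9 and 28.4 in KD (-1.03 ± 0.306, adjusted p = 0.194 by edgeR and 0.0357 by DESeq2), and with offsets it was not called by edgeR (-0.57, adjusted p = 0.0692) and was called by DESeq2 (-0.60, adjusted p = 0.0706).

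The GINS subunits, which join MCM2-7 and CDC45 in the active helicase, had log2 fold changes of -0.79 (GINS1), -0.57 (GINS2), -0.27 (GINS3) and -0.17 (GINS4), of which only GINS1 was called by DESeq2 (adjusted p = 0.0665). CDC45, on chromosome 22, was at 43.1 and 48.5 CPM in WT and at 38.7 in KD replicate 1 (-0.24 ± 0.148, adjusted p = 0.263, edgeR, 3 libraries). MCM10, which activates the helicase, stood at -0.47 ± 0.174 (adjusted p = 0.198, edgeR). POLA1, the catalytic subunit of the primase polymerase on chromosome X, was at 136 and 133 CPM in WT and at 89.6 in KD replicate 1. In the 3-library fit the log2 fold change of POLA1 was -0.59. The other pathway genes on chromosomes 21, 22 and X, CDC45 and DONSON, were at -0.24 and -0.50. The KD side of that fit is KD replicate 1 alone, with the spread taken from WT. These values describe 1 library and are not read as a change in KD. The exon GC content of POLA1 is 39.8%, and genes of 31.0% to 40.4% had a median log2 ratio of -0.25 in KD replicate 1. The mitotic list had a summed level of 5790 and 5840 CPM in WT and 4360 and 3400 in KD, a sum made up mostly of MKI67, TOP2A and CENPF. Of its 10 genes, 8 had each KD value lower than each WT value (32.4% of all genes tested). The median log2 fold change of this list was -0.44, or -0.24 with offsets, and its median exon GC content was 44.5%. PLK1 (110 and 122 CPM in WT, 117 and 184 in KD) and AURKB (90.8 and 94.0 in WT, 84.6 and 145 in KD) were highest in KD replicate 2. The part of the mitotic genes in the values of the licensing genes was not tested. The fibroblast markers summed to 33.0 and 37.5 CPM in WT and 61.0 and 93.1 in KD (3 of 4 detected, DCN at 0), and the luminal markers to 537 and 598 in WT and 904 and 1410 in KD (4 of 6 detected, nearly all of it KRT8). The 2 leukocyte markers in the table summed to at most 0.395 CPM. The part of these markers was not tested either.

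**Figure D4:**
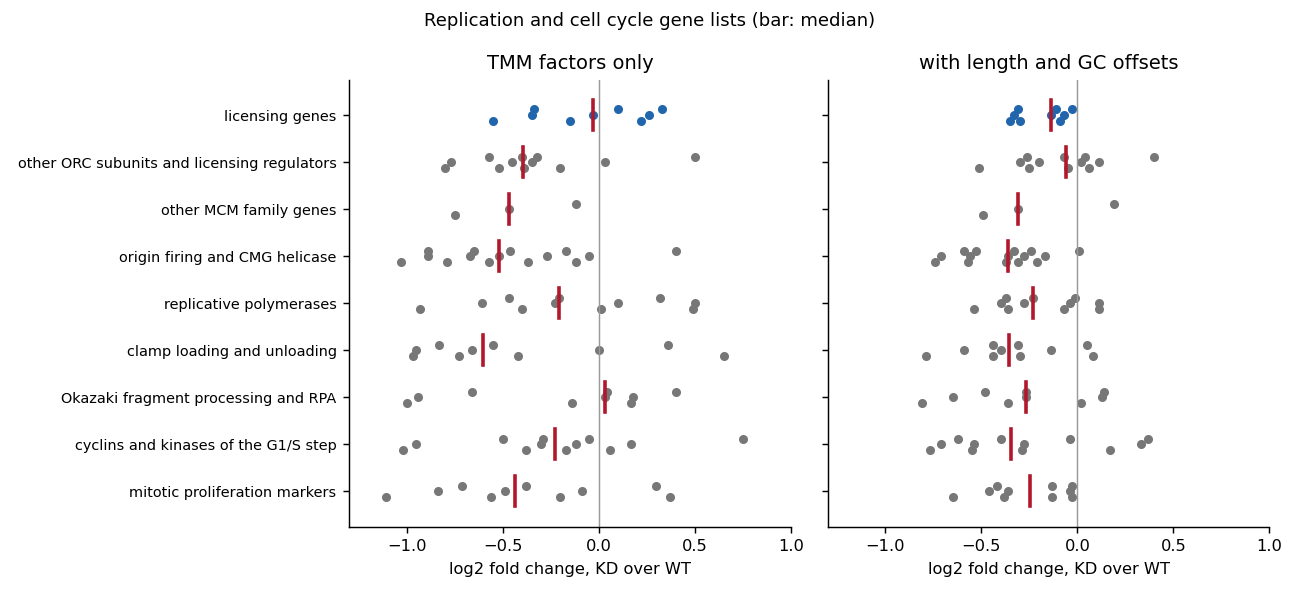
Log2 fold change (KD over WT) of every gene in the licensing list (blue) and in the 8 other lists (grey) in the 4-library fit. Red bars are the list medians. The left side used TMM factors only, and the right side used length and GC offsets in their place. The licensing genes straddle 0 on the left and lie between -0.35 and -0.03 on the right, and the origin firing genes have a median of -0.52 on the left and -0.36 on the right.

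How many licensing gene starts had an mH2A1.1 ChIP-seq peak depended on the window used, as given below. The mH2A1.1 list held 30687 peaks and the total mH2A1 list 24222, all made of bins of 3000 bp, so a position is known only to that width. An mH2A1.1 peak lay within 500 bp of the start of 2 of the 10 genes, MCM2 and MCM7, against 46.0% of the 12115 located genes in the 3-library test. A total mH2A1 peak lay there for 1 of the 10, MCM7, against 18.3%. Each list comes from 1 library, so there is no replicate check and no test.

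At MCM2 (chr3:127598410-127622436, GENCODE release 44 on hg38) the mH2A1.1 peak ran over chr3:127590001-127599000, from upstream into the first bases of the gene and across the whole promoter window printed earlier. No total mH2A1 peak lay within 30 kb of its start. At MCM7 (chr7:100092233-100101940) both lists had a peak over the start, chr7:100101001-100104000 for mH2A1.1 and chr7:100101001-100110000 for total mH2A1, and 8 of its 11 annotated transcript starts lay within 500 bp of each. The MCM7 promoter printed earlier lies inside the GENCODE gene, at a RefSeq start within both peaks. MCM7 was the only one of the 10 genes with a peak of both lists at the start. TPRA1 starts 143 bp from MCM2 and AP4M1 starts 391 bp from MCM7. Bins of 3000 bp cannot assign the peaks at these starts to the licensing gene rather than to its neighbour.

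The other starts had their nearest mH2A1.1 peak outside the window. At CDT1 a peak of 18000 bp, chr16:88785001-88803000, ended 789 bp upstream of the start. At CDC6 a peak at chr17:40284001-40287000 ended 879 bp upstream, and an 18000 bp peak covered the end of the gene. With a window of 1000 bp CDT1 and CDC6 would be counted, making 4 of 10, while 48.1% of all tested genes then had a peak. The nearest mH2A1.1 peak lay 3134 bp from MCM5, 3375 bp from PCNA, 14120 bp from MCM3, 15443 bp from MCM6, 18423 bp from ORC1 and 21816 bp from MCM4, so MCM4 was the gene farthest from one. The peak nearest to MCM5, upstream at chr22:35394001-35397000, was called with the total antibody over the same bins.

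Over gene bodies, mH2A1.1 peaks lay on 8 of the 10 licensing genes, against 71.4% of tested genes, and covered 0% to 17.5% of each licensing gene, with a median of 9.51% against 8.07% over the tested genes. MCM5 had the largest covered share (17.5%), followed by CDC6 (15.8%) and MCM2 (12.6%), and MCM4 and CDT1 had none. Total mH2A1 peaks lay on 3 of the 10 genes, MCM5, MCM7 and ORC1, against 42.4% of tested genes, and covered 11.9%, 9.68% and 9.5% of them. The 2 genes with an mH2A1.1 peak at the start, MCM2 and MCM7, were above 0 in the RNA comparison (0.33 and 0.26), as were CDT1 (0.22) and ORC1 (0.10) with no peak within 500 bp of the start, and the 3 genes with both KD libraries below WT (MCM4, MCM6 and CDC6) had no peak within 500 bp of theirs. MCM2 and MCM7 also have GC-rich exons, and with length and GC offsets both stood below 0 (-0.07 and -0.11), as did the other 7.

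**Figure D5:**
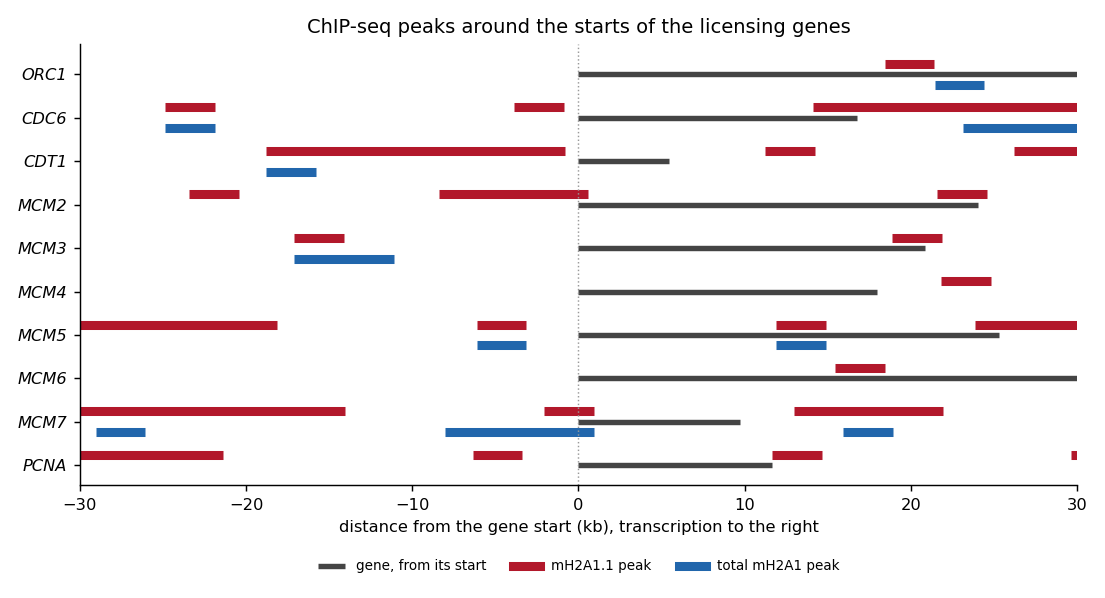
ChIP-seq peaks of mH2A1.1 (red, above each gene) and total mH2A1 (blue, below) within 30 kb of the starts of the 10 licensing genes, with the gene drawn as a grey line from its start and transcription to the right. Peaks touch the dotted line at the start only for MCM2 (mH2A1.1) and MCM7 (both lists), and end 789 and 879 bp upstream of CDT1 and CDC6.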

How the data were processed

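The authors aligned RNA-seq reads to GRCh38 (hg38 in the labels) with STAR (2.5.1), removed reads of mapping quality under 10 and duplicates, and deposited counts per Ensembl gene from htseq-count (0.8.0, default parameters). Fragments carried no molecular identifiers, so duplicate removal can lower the values of highly expressed genes, and default counting drops reads in overlapping genes. The kit marks strand, and whether the default strand setting fits it is not given in the sources used here, so reads of overlapping or antisense genes cannot be told apart with certainty. For ChIP-seq, the authors deposited peak lists called with NormR (1.8.0) against input, whose score column is 0 throughout. Promoter capture Hi-C and input files were not used here.

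Identifiers were matched to GENCODE release 44 (23061 of 23167). Counts were tested with edgeR 4.0.16 (R 4.3.3): filterByExpr, TMM factors (0.918 to 1.04), quasi-likelihood F test and Benjamini-Hochberg adjustment over 10963 genes, without chromosomes 21, 22 and X. DESeq2 1.42.0 was an alternative. Length and GC offsets were lowess trends (span 0.3) of each library, which took the place of the TMM factors in edgeR. CPM used TMM library sizes. Fold changes are log2(KD/WT), values after ± are SE of the fit or SD as stated, and log2 ratios of CPM used a pseudocount of 0.5. The SE of an edgeR fit was derived as the absolute log2 fold change divided by the square root of the F statistic. Peaks were counted at a start, the 5' end of the gene, with at least 1 bp of overlap with 500 bp on each side. The scripts were tested on simulated data. The members and gene lists were chosen with earlier results of these data known. Named were all 10 members, ORC2 to ORC6, GMNN, CDC45, GINS1 to GINS4, CDC7, DBF4, MCM10, every called gene of the lists, MACROH2A1, neighbours starting within 1000 bp, and the 5 nearest profiles. DDB1, DTL, CUL4A, DONSON, PLK1 and AURKB were named after their values were seen.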

Additional observations from a re-analysis of the deposited data

How the results depend on the processing

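The number of genes called moved from 0 in edgeR to 874 in DESeq2, 945 in DESeq2 with all chromosomes, 2139 with no filter on low counts, 607 with length and GC offsets, 418 with these trends in DESeq2 and 147 after thinning, and ranged from 2 to 4744 with each replicate left out. The pathway genes called were 17, 17, 27, 9, 6 and 2 in the same order, and 0 to 47 with each replicate left out. The licensing genes called were 0 in each of these, except 2 of 9 without KD replicate 1 (MCM2 and MCM6, beside 41.8% of all genes), so the range was 0 to 2. The cause was not tested.

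No source used here says whether libraries with the same replicate number were prepared together. Deviations from the group means correlated at 0.231 within a number and at -0.231 between WT replicate 1 and KD replicate 2. With 2 libraries per group these values mirror each other, and a shared batch was not tested. With the replicate block edgeR called 2208 genes, 28 pathway genes and 0 licensing genes. The block with length and GC offsets, added after seeing the data, called 859 genes, 13 pathway genes and 0 licensing genes.

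Of 135 values of the 9 genes under 15 alternatives, 114 kept their sign and call, 2 gained a call and 19 changed sign. With length and GC offsets MCM2, MCM7, CDT1 and ORC1 moved to -0.07, -0.11, -0.31 and -0.09 in edgeR, to -0.06, -0.11, -0.32 and -0.08 in DESeq2 and to -0.08, -0.10, -0.31 and -0.08 with the block. Without KD replicate 2, MCM2, CDT1 and ORC1 were at -0.14, -0.11 and -0.02, MCM3 and PCNA at -0.34 and -0.15, without KD replicate 1, MCM2, MCM3, CDT1, ORC1 and PCNA were at 0.70, 0.02, 0.54, 0.25 and 0.09, and PCNA was at 0.05 without WT replicate 2 and at 0.05 after thinning. MCM5 was at 0.03 without WT replicate 2 and at -0.08 without WT replicate 1.

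An mH2A1.1 peak was at 4 of the 10 starts within 1000 bp (48.1% of tested genes) and on 8 genes anywhere (71.4%). It was at 1 start with peaks of at least 6000 bp (32.6%) and at 1 with common peaks, those that overlap the other list (25.7%). Total mH2A1 peaks were on 3 genes anywhere (42.4%). The median covered share was 0.0% with common peaks and 0.0% with total mH2A1 peaks, and 0.0% for both over the tested genes.

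The shallowest library, KD replicate 2, had 83 reads for ORC1 and 109 for CDT1, the smallest counts among the licensing genes.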
